A study of Mus musculus with 6 samples.

Results

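The regions described here are gene desert regions, stretches of open chromatin that lie more than 50 kb from every protein-coding gene in the mouse genome (mm10). They were found by merging ATAC-seq peaks of 6 libraries that overlapped by at least 1 bp and keeping the merged regions on the 19 autosomes whose nearest protein-coding gene span was more than 50 kb away. This gave 12562 desert regions among 74016 autosomal regions (17.0%), out of 75738 regions on all chromosomes. Peak presence played no part in the choice beyond the need for a peak in at least 1 library.

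ATAC-seq cuts and tags DNA where a transposase can reach it, so that a peak marks accessible chromatin. The study sorted 3 populations of back skin epidermis from C57BL/6 mice aged 60 days that all carried TNC-CREER, a tamoxifen-inducible Cre under Tnc (tenascin-C), and a tdTomato reporter, and that all were given tamoxifen (100 µg per g of body weight) on days 51 and 52. All sorted cells carried EPCAM and α6-integrin. Touch dome cells, from the keratinocyte patches that hold the mechanosensory Merkel cells, also carried SCA1 and tdTomato, cells of the interfollicular epidermis (IFE) SCA1 without tdTomato, and cells of the hair follicle (HF) neither. There were 2 libraries per population, each made from 50000 cells. The touch dome gate rests on Tnc activity at the time of tamoxifen, so it is not independent of the Tnc locus. The labels do not tie the libraries to animals, so p-values may measure technical spread alone. At the genes themselves, the keratinocyte genes Krt5, Krt14, Trp63 and Epcam had peaks in all 6 libraries. Ly6a, the gene of SCA1, had 2 and 2 regions open in touch dome, 2 and 2 in IFE and 1 and 1 in HF, and Tnc had 7 and 7 in touch dome, 4 and 4 in IFE and 7 and 7 in HF, so that Tnc was not closed in the tdTomato-negative cells. The T cell gene Cd3e had no region, and the immune gene Ptprc had 1, open in both touch dome libraries alone. The endothelial gene Pecam1 had 9 regions, of which 7 and 7 were open in touch dome, 9 and 7 in IFE and 7 and 7 in HF, and the 1 region at the fibroblast gene Col1a1 was open in all 6 libraries. The part of cells outside the gates in these peaks was not tested.

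Open chromatin far from genes is usually found at enhancers, DNA elements that bind transcription factors and can act on promoters over long distances, often past other genes. Gene deserts commonly flank genes of developmental transcription factors and signalling molecules, and those beside Sox9 and the HoxD cluster are known for long-range enhancers. Deserts also hold genes without a protein product, among them long non-coding RNAs (lncRNAs) and the primary transcripts of microRNAs (miRNAs), which repress mRNAs that pair with their seed. A region is called open in a library here when that library has a peak in it. Where a library has no peak, none was called, at a depth that is unknown.

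Annotated microRNA genes give the deserts sequences of known function, and 30 of 919 autosomal miRNA genes lay within 5 kb of a desert region. Of these, 21 had at least 1 such region open in all 6 libraries, while 30.8% of single desert regions were. The units are unlike, since a gene with several regions counts when any of them is open in all 6. Clustered genes share regions, and 6 of the 21, the genes of the miR-17-92 cluster, lay beside the same region. The mature forms below belong to miRNA genes beside desert regions and are shown because several of them share a seed (bases 2 to 8, in capitals). Sequences are RefSeq's for GRCm38.p6, the assembly of mm10, written 5′ to 3′.
mmu-miR-205-5p: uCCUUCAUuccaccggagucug
mmu-miR-30a-5p: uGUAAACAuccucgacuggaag
mmu-miR-30c-5p: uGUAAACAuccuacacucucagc
mmu-miR-29a-3p: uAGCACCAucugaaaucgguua
mmu-miR-29b-3p: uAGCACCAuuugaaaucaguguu
mmu-miR-100-5p: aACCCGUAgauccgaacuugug
mmu-miR-99a-5p: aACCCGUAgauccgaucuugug
mmu-miR-125b-5p: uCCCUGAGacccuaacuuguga
mmu-let-7c-5p: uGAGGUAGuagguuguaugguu
mmu-miR-17-5p: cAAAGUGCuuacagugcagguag
mmu-miR-20a-5p: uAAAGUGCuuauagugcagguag
mmu-miR-18a-5p: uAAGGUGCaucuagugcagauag
mmu-miR-19a-3p: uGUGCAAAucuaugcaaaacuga
mmu-miR-19b-3p: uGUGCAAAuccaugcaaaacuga
mmu-miR-92a-3p: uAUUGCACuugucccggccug

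Mir205, at chr1:193507463-193507530 on the minus strand, makes miR-205-5p, a miRNA abundant in stratified epithelia that is required for hair follicle stem cells in mice. It had 4 desert regions within 5 kb, and all 4 were open in both touch dome, both IFE and both HF libraries. It lies in the desert between Camk1g and Plxna2, which held 43 desert regions in all. Mir30a (chr1:23272269-23272339) and Mir30c-2 (chr1:23291701-23291784) share the seed GUAAACA and a desert between Ppp1r14bl and Ogfrl1. Their nearest desert regions lay 342 and 684 bp away, and each had 1 within 5 kb that was open in all 6 libraries. Mir29a and Mir29b-1, whose products share AGCACCA and repress collagen mRNAs, lay 312 and 675 bp from their nearest desert region, with 2 regions within 5 kb of each, 1 of them open in all 6 libraries.

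The seed ACCCGUA is shared by miR-100 and miR-99a, which come from separate deserts. Mir99a and Mirlet7c-1, between Usp25 and Cxadr, had 2 regions open in all 6 libraries within 5 kb. Mir100, between Ubash3b and Gm40514, had 1 region within 5 kb, open in both touch dome, both IFE and 1 of the HF libraries, and Mir125b-1 in the same desert overlapped a region. The miR-17-92 cluster on chromosome 14, a polycistron known for promoting proliferation, had 1 region open in all 6 libraries 2455 bp from Mir17. Its members fall into seed groups, with AAAGUGC in miR-17 and miR-20a and GUGCAAA in miR-19a and miR-19b. Mir5118, between Zpld1 and Nfkbiz, had a region 317 bp away that was open in both touch dome and both IFE libraries and in neither HF library.

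LncRNA promoters give the sequence under some of the desert regions themselves. RefSeq promoters (250 bases before to 50 after a start site) of 364 lncRNA genes, 410 promoters in all, overlapped desert regions, and 226 of these promoters lay in regions open in all 6 libraries, a pattern that 30.8% of all desert regions had. The 6 promoters below are shown 1 per pattern of opening, for the widest region of the pattern or by name. Capitals mark matches to the AP-1 motif TGANTCA, the RUNX motif TGTGGTT, the TCF/LEF motif CTTTGAA, the GATA motif AGATAA, the TEAD motif GGAATG or the SOX motif AACAATG on either strand.
Gm43700 promoter: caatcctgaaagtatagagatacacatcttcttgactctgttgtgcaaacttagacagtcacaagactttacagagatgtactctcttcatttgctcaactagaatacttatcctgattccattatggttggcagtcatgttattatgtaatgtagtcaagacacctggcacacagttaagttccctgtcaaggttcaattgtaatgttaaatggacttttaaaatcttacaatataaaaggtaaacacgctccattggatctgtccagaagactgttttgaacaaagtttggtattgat
Gm20755 promoter: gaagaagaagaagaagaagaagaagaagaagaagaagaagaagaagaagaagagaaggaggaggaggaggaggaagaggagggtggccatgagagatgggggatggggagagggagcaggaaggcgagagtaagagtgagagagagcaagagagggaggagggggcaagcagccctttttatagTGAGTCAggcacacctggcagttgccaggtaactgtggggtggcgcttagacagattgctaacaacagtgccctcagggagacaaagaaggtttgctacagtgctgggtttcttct
Gm46748 promoter: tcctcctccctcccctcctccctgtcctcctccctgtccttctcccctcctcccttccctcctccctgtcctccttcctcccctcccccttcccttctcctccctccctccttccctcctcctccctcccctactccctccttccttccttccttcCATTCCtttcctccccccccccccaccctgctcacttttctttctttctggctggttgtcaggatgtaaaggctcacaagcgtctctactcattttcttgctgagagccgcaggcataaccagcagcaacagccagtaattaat
Gm31115 promoter: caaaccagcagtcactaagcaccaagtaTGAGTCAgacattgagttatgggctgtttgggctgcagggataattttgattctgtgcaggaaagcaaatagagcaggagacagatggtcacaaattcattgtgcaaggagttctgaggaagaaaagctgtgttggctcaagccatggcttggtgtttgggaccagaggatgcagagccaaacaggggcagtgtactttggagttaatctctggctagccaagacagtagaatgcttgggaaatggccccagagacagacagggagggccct
Gm40910 promoter: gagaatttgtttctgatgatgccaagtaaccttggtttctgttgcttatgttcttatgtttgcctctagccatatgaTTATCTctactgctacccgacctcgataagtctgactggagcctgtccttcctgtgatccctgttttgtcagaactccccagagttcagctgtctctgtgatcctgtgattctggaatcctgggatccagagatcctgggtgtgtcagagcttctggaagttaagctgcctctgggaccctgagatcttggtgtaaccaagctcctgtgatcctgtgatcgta
Mir205hg promoter: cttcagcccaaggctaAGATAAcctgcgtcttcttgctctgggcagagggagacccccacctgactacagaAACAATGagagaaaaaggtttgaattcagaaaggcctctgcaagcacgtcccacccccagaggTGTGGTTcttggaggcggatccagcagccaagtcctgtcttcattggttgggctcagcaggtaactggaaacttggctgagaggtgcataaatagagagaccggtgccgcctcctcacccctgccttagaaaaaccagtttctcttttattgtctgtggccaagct

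Gm43700 (chr5:43030803-43031102) lay in a region open in both touch dome libraries alone, and its promoter held none of the 6 motifs. The promoter of Gm20755 (chr3:37898563-37898862), open in both IFE libraries alone, held an AP-1 match. Gm46748 (chr2:75061360-75061659), open in both HF libraries alone, held a TEAD match and lies in the desert beyond Mtx2 beside the HoxD gene cluster. The promoter of Gm31115 shown (chr4:64282468-64282767), between Tnc and Pappa, was open in both touch dome and both HF libraries and in neither IFE library. It held an AP-1 match. On the plus strand, it lies near the downstream end of the gene span (chr4:64154280-64286118), so its start site is inside the gene. Gm40910 (chr13:35078239-35078538), open in touch dome and IFE and not in HF, held a GATA match. Mir205hg, the host gene of miR-205 (chr1:193510161-193510460), was open in all 6 libraries and held RUNX, GATA and SOX matches.

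AP-1 factors, dimers of the Jun and Fos families, are prominent in epidermal chromatin. The AP-1 motif was in 16.8% of the 410 lncRNA promoters in desert regions, against 9.25% of all 11310 lncRNA promoters and 7.85% of all 31365 promoters. The 410 all overlap open regions, while the larger sets were taken whether or not they had a peak. The contrast therefore does not set deserts against other open chromatin. It was in 20.7% of the 184 promoters whose region was not open in all 6 libraries and in 13.7% of the 226 whose region was. Among the 6 motifs marked above, which were chosen from 14 searched after their values were seen, the others lay closer to their share of all lncRNA promoters. TEAD was in 19.5% against 16.7%, SOX in 6.34% against 4.76%, GATA in 12.9% against 14.0%, RUNX in 6.34% against 6.30% and TCF/LEF in 6.34% against 6.24%. AP-1 did not stand apart from all motifs searched. Of those not marked, LHX was in 4.39% against 2.63%, NFI in 0.244% against 0.0442% and GRHL in 0.244% against 0.0884%. ETS went the other way, in 0.488% against 0.990%. Matches of different motifs were counted separately even where they overlapped. These promoters had a median of 4.5 CpG per 300 bases, against 4 in all lncRNA promoters and 14 in protein-coding promoters. A match describes the letters only, and these shares were not tested.

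The number of desert regions that were open differed between libraries. For touch dome, 6929 and 9178 desert regions were open, for IFE 6697 and 6833, and for HF 8488 and 9001. The HF libraries both lay above the IFE libraries, while the touch dome libraries spanned most of the range. In such bulk samples, fewer cells with open chromatin and less opening per cell cannot be told apart. The lists themselves differed in length, with 50153 and 59250 peaks for touch dome, 52219 and 51124 for IFE and 54844 and 57131 for HF.

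As a share of the open autosomal regions of each library, which can itself vary with the length of the list, desert regions made up 14.5% and 16.0% in touch dome, 13.3% and 13.9% in IFE and 16.0% and 16.4% in HF. The means were 15.2% ± 1.08 in touch dome, 13.6% ± 0.461 in IFE and 16.2% ± 0.247 in HF (SD, n = 2 each). The difference was 1.63 percentage points for touch dome minus IFE, -0.965 points for touch dome minus HF and -2.60 points for IFE minus HF. No pair of populations overlapped on this share, though the higher touch dome and the lower HF library both rounded to 16.0%. Each pair gave p = 0.333 in an exact two-sided permutation test (adjusted 0.333 over the 3 pairs), the smallest p that 2 libraries against 2 can reach, so none of these differences could pass the threshold of 0.05.

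**Figure D1:**
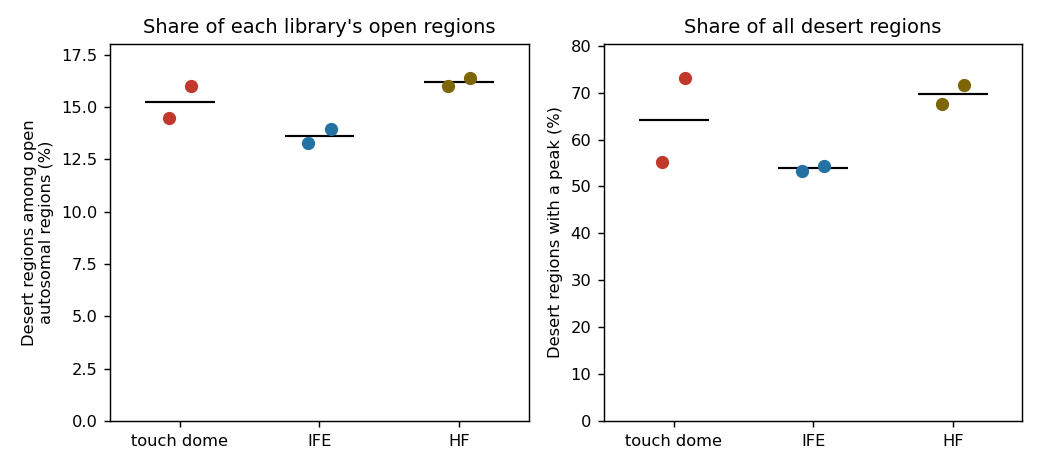
Desert regions in each library. The left panel gives desert regions as a percentage of the library's open autosomal regions and the right panel the percentage of all 12562 desert regions with a peak, with 1 point per library and a bar at the mean of the 2 libraries; the IFE points are lowest in both panels, and the 2 touch dome points are far apart in the right panel.

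Desert regions were open in fewer libraries than regions elsewhere. Of the 12562, 3873 (30.8%) were open in all 6 libraries, against 45.3% of all autosomal regions. The share was 40.4% for regions outside coding spans but within 50 kb of one, 38.0% for regions inside coding spans, and 82.5% for regions within 1 kb of either end of a coding span, where promoters lie. At the other end, 2025 desert regions (16.1%) were open in a single library. The 3 regions furthest from any coding gene that were open in all 6 libraries lay together at chr8:6775498-6781610, between Slc10a2 and Efnb2, 1670 to 1676 kb from the nearest coding span.

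Among desert regions with agreeing libraries in each population, those open in HF alone were the most frequent after those open in all 6. Open in both HF libraries alone were 1300 desert regions (10.3%), against 6.89% of all autosomal regions. Open in both touch dome libraries alone were 245 (1.95%, against 1.14%), and open in both IFE libraries alone were 155 (1.23%, against 1.22%). Touch dome cells shared desert regions with either of the other populations in like numbers. Open in touch dome and IFE and in neither HF library were 948 desert regions (7.55%, against 6.53%), and open in touch dome and HF and in neither IFE library were 976 (7.77%, against 4.06%). For touch dome with IFE, the share was 7.97% in regions outside coding spans within 50 kb and 7.28% inside them. For touch dome with HF, it was 3.66% and 4.20%. Only 33 desert regions (0.263%, against 0.320%) were open in IFE and HF and in neither touch dome library. In the remaining 5032 (40.1%), the libraries of at least 1 population disagreed, against 38.2% in the regions within 50 kb and 39.6% in those inside coding spans.

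**Figure D2:**
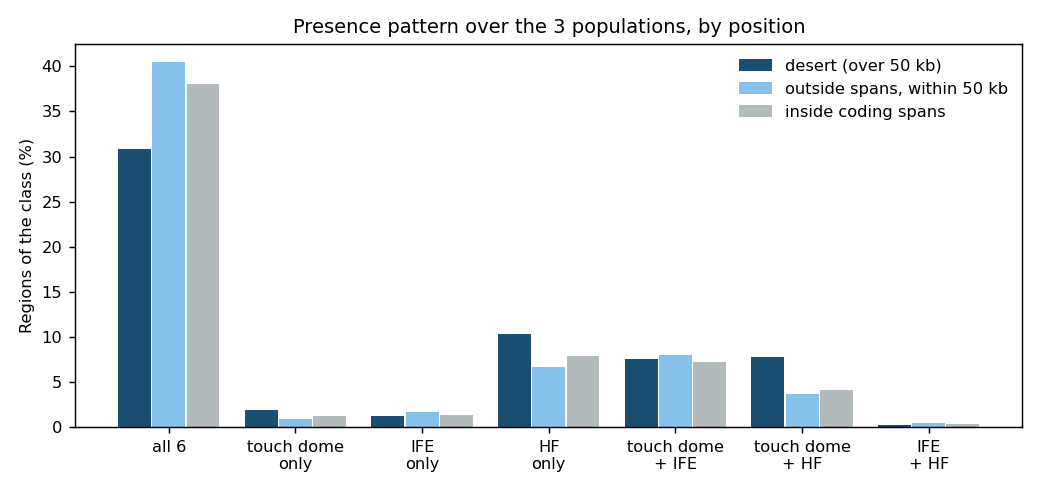
Percentage of regions with each presence pattern, for desert regions, regions outside coding spans within 50 kb, and regions inside coding spans. Open in all 6 libraries is less frequent in desert regions (30.8%) than in the other 2 classes, and open in HF alone (10.3%) and in touch dome with HF (7.77%) are more frequent; regions whose replicates differ and regions within 1 kb of a gene end are not drawn.

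Set against the regions near genes (within 50 kb or inside a coding span, and not within 1 kb of its ends, 48336 in all) within each library, no difference passed the threshold. The share of a library's open regions that no library of another population had averaged 10.8% ± 8.12 for desert and 8.74% ± 6.22 for gene-near regions (SD, n = 6). It was higher for desert regions in 5 of 6 libraries, by 2.08 points on average (exact two-sided sign-flip permutation test, p = 0.0938, adjusted 0.141 over 3 measures, smallest possible p 0.0313). The median peak width was lower in 5 of 6 libraries, by 10.7 bp on average, at 792 bp in desert and 802 bp in gene-near regions (p = 0.0625, adjusted 0.141, same exact test). The share also open in the replicate library was 88.2% for desert and 88.7% for gene-near regions, higher in 3 libraries and lower in 3 (p = 0.719, same exact test). The 6 libraries share their regions, so these differences are not fully independent of each other.

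Between touch dome and IFE, the desert regions that differed were mostly open in touch dome. A region counted for a population when both of its libraries and neither library of the other were open. On this count 1267 desert regions (10.1%) were open in touch dome and not IFE, where 5.46% of all autosomal regions were. In the other direction, 211 (1.68%) were open in IFE and not touch dome, against 1.80% of all autosomal regions. Of the 1267, 77.0% were also open in both HF libraries, against 73.2% of the gene-near regions open in touch dome and not IFE. The touch dome libraries differed, and leaving out 1 of them loosens the rule to a single library. Either omission moved the count of 1 side by more than 1.5 times. Without touch dome replicate 1 the touch dome side held 2580 regions and the IFE side 248. Without touch dome replicate 2 the touch dome side held 1403 and the IFE side 947. Without IFE replicate 1 or 2 the IFE side held 498 or 503.

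Between touch dome and HF the sides were close in number. Open in touch dome and not HF were 1289 desert regions (10.3%), against 8.43% of all autosomal regions, and open in HF and not touch dome were 1438 (11.4%), against 7.93%. The touch dome side was nearer to regions outside coding spans within 50 kb (9.81%) and inside them (9.47%). On the HF side these classes had 7.94% and 9.08%. Without touch dome replicate 1 the touch dome side held 2222 regions, and without touch dome replicate 2 the HF side held 2696; without HF replicate 1 the HF side held 2265.

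The IFE and HF comparison held the most differing desert regions. Open in IFE and not HF were 1444 (11.5%), against 10.2% of all autosomal regions. This was level with the 11.5% of regions inside coding spans and below the 12.4% of those outside them within 50 kb. Open in HF and not IFE were 3044 (24.2%), against 14.7%, and against 13.7% of the regions outside coding spans within 50 kb and 16.4% of those inside coding spans. Of the 3044, 976 (32.1%) were also open in both touch dome libraries and 1300 in neither. Of the 7443 gene-near regions open in HF and not IFE, 26.0% were open in both touch dome libraries. With each list cut to the same number of its widest peaks, the HF side held 22.2% of desert and 13.4% of gene-near regions.

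The share of desert regions that were open varied with distance. The distance of desert regions from a coding span had a median of 130 kb, quartiles of 79.2 and 232 kb and a maximum of 1859 kb. Between regions at 50 to 100 kb (4683) and regions beyond 200 kb (3839), the share open changed by -5.68 and -2.70 points in touch dome, by -13.0 and -11.6 points in IFE and by -2.11 and -1.73 points in HF. Beyond 200 kb, 51.4% and 71.6% were open in touch dome, 46.0% and 48.0% in IFE and 66.0% and 70.5% in HF. At 50 to 100 kb, 57.1% and 74.3% were open in touch dome, 59.0% and 59.6% in IFE and 68.1% and 72.2% in HF. Fewer regions were thus open at the greater distance in every library, and the change was largest in the IFE libraries. The difference in this change was 8.14 points for touch dome minus IFE, -2.27 points for touch dome minus HF and -10.4 points for IFE minus HF. The populations did not overlap, and each pair gave an exact permutation p = 0.333, the smallest possible. Among the 3103 regions more than 50 kb from any annotated gene, non-coding ones included, the difference was 2.69 points for touch dome minus HF and -3.73 points for IFE minus HF.

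Regions open in HF and not IFE made up 20.5% of desert regions at 50 to 100 kb, 24.7% at 100 to 200 kb, 28.2% at 200 to 400 kb, 29.2% at 400 to 800 kb and 25.5% of the 204 beyond 800 kb. Those open in touch dome and not IFE made up 7.77%, 10.4%, 12.8%, 11.9% and 12.7% over the same steps. The share open in all 6 libraries was 35.1% at 50 to 100 kb and 25.5% beyond 200 kb. The 50 kb limit cuts through a gradual change: 38.5% of the 1593 regions at 40 to 50 kb and 37.5% of the 1343 at 50 to 60 kb were open in all 6 libraries.

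**Figure D3:**
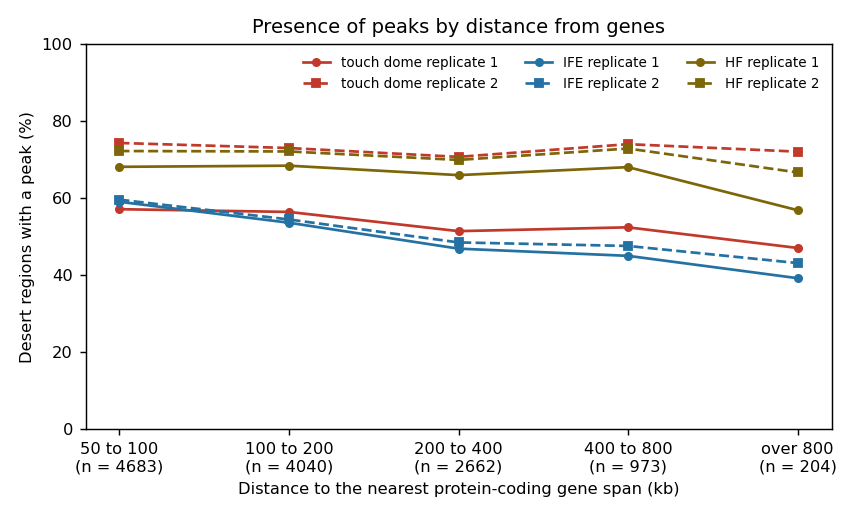
Percentage of desert regions with a peak, by distance to the nearest protein-coding gene span in kb, 1 line per library (replicate 1 solid, replicate 2 dashed). Both IFE lines fall by more than 10 points between the first step and the steps beyond 200 kb, while both HF lines stay within a few points up to 800 kb.

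Desert regions were spread over many deserts and clustered within some. The autosomes held 2476 stretches more than 50 kb from every coding gene, each called here by the genes on its 2 sides, with a total length of 836 Mb, and 1537 of them held at least 1 desert region. The 12 richest held 836 regions (6.65%), and 207 held 50% of all. Of 213 deserts at least 1 Mb long, 29 had no region, the longest of them 2932 kb between Snx16 and Ralyl. Chromosome 13 had the highest share of desert among its regions (29.7%) and chromosome 19 the lowest (8.48%).

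Among the 12 richest deserts were those beside Klf4, Gata3, Sox9, Myc and Nfib, which encode transcription factors. The desert between Klf4, a factor of the epidermal barrier, and Actl7b held 101 regions in 1108 kb (chr4:55582476-56690004), of which 54 were open in all 6 libraries. Counts there were nearly level, with 71 and 80 open in touch dome, 75 and 77 in IFE and 78 and 76 in HF. The desert between Celf2 and Gata3, a factor of epidermal and inner root sheath differentiation, held 87 (chr2:7446342-9807077), open in 61 and 74 cases in touch dome, 67 and 61 in IFE and 56 and 57 in HF. Beside Efnb2 and Epha4, an ephrin ligand and an Eph receptor, lay 86 regions (Slc10a2-Efnb2) and 80 regions (Slc4a3-Epha4). Others were Usp25-Cxadr with 67, Jag1-Btbd3 beside a Notch ligand with 65, A1bg-Myc with 61, Mctp2-Rgma with 58, Mpdz-Nfib beside a hair follicle stem cell factor with 56, and Slc30a5-Pik3r1 and Plpp3-Usp24 with 55 each. Open in all 6 libraries were 37 in Celf2-Gata3, 33 in Slc10a2-Efnb2, 30 in Slc4a3-Epha4, 27 each in A1bg-Myc and Jag1-Btbd3, 24 in Usp25-Cxadr, 23 in Slc30a5-Pik3r1, 16 in Mpdz-Nfib, 15 in Mctp2-Rgma and 11 in Plpp3-Usp24.

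Of the 12 richest deserts, the one before Sox9, a factor of hair follicle stem cells, and Plpp3-Usp24 had the largest net numbers for HF over IFE. In the desert before Sox9 (chr11:111776302-112732209), with 65 regions, 37 and 46 were open in touch dome, 30 and 33 in IFE and 55 and 53 in HF. Between IFE and HF, 5 were open in IFE and not HF and 26 in HF and not IFE, while 21 were open in all 6 libraries. Plpp3-Usp24 had 2 and 22 on the same count. The desert beyond Mtx2 beside the HoxD cluster (chr2:74926749-75401973) had the largest net number for HF over IFE. Of its 38 regions, 14 and 22 were open in touch dome, 6 and 4 in IFE and 36 and 31 in HF. There, 23 were open in HF and not IFE and 0 in the reverse, and 2 were open in all 6 libraries.

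Deserts with the largest net number for touch dome over IFE were mostly shared by touch dome and HF. The same held in general, since 77.0% of all desert regions open in touch dome and not IFE were open in both HF libraries. Between Gfra2, a receptor for neurturin, and Gm9195 (chr14:71029841-72381659), 20 and 23 of 29 regions were open in touch dome, 5 and 4 in IFE and 24 and 23 in HF. There, 15 were open in touch dome and not IFE and 0 in the reverse, and 13 were open in both touch dome and both HF libraries alone. Between Klhl29 and Apob (chr12:5425683-7927628), none of 26 regions was open in either IFE library, while 15 and 19 were open in touch dome and 18 and 19 in HF. Of these, 9 were open in both touch dome and both HF libraries, 3 in touch dome alone and 3 in HF alone. The lncRNA gene Gm9548 in this desert held 12 of the regions. Plpp3-Usp24 had 13 regions open in touch dome and not IFE and 1 in the reverse, and Cdh11-Cdh5 had 10 and 0.

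The desert between Tnc and Pappa is of interest because Tnc drives the Cre by which touch dome cells were sorted (chr4:64097016-65074173). Of its 31 regions, 18 and 25 were open in touch dome, 8 and 9 in IFE and 18 and 19 in HF. Open in touch dome and not IFE were 10, and 0 in the reverse. Of the 10, 6 were open in both HF libraries and 4 in no other population. Of those 4, a region at chr4:64155800-64156828 lay 109 kb from the Tnc span and a region at chr4:64437743-64438376 lay 391 kb from it. Open in all 6 libraries were 5, and the furthest of them, at chr4:64236330-64238660, lay 189 kb from Tnc. The lncRNA gene Gm31115, of which a promoter inside the gene span is given above, held 11 of the regions. Whether any of these regions acts on Tnc was not tested.

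In the touch dome against HF comparison, deserts shared by touch dome and IFE led on the touch dome side. The same held in general, since 948 of all 1289 desert regions open in touch dome and not HF were open in both IFE libraries. Between Satb1, a chromatin organiser of epidermis, and Kcnh8 (chr17:51883291-52552708), 12 and 14 of 18 regions were open in touch dome, 16 and 14 in IFE and 3 and 3 in HF. Of the 18, 10 were open in both touch dome and both IFE libraries and in neither HF library. Celf2-Gata3 had 17 regions open in touch dome and not HF and 6 in the reverse, Zpld1-Nfkbiz had 10 and 1, and Eci2-Cdyl had 9 and 0. Rragc-Pou3f1, beside the gene of a POU factor expressed in epidermis, had 9 and 1. On the HF side, Enc1-Arhgef28 had 1 region open in touch dome and not HF and 12 in the reverse. Trps1-Eif3h, beside a factor whose loss affects hair, had 0 and 10, Ednra-Ttc29 had 0 and 9, Mki67-Mgmt had 2 and 11, and Igfbp7-Adgrl3 had 1 and 10.

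**Figure D4:**
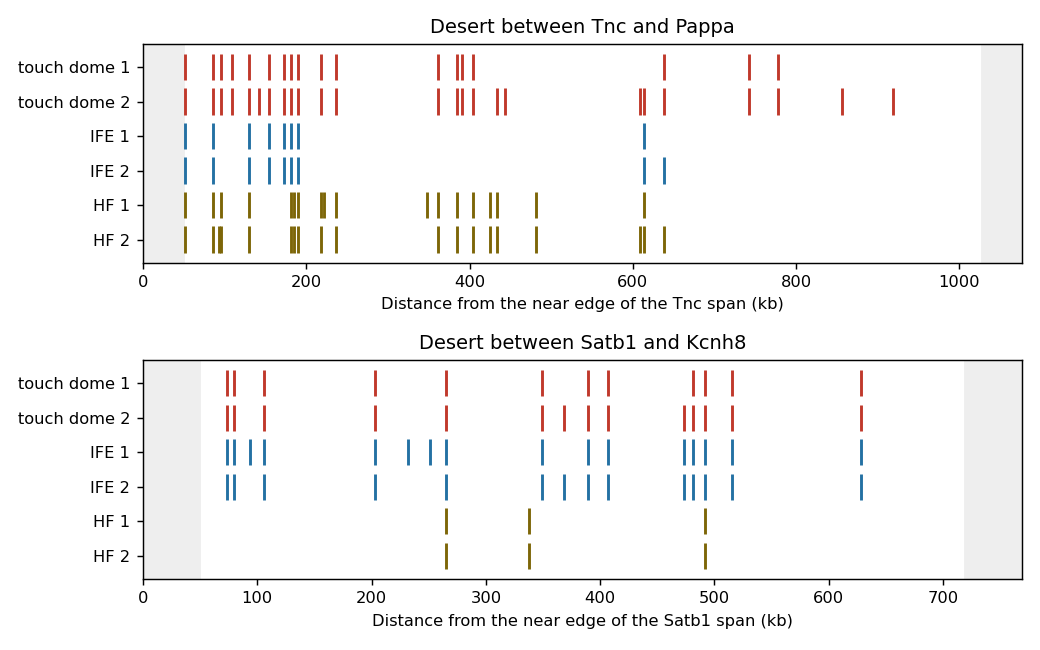
Desert regions with a peak in each library across the deserts between Tnc and Pappa (top) and between Satb1 and Kcnh8 (bottom), as marks at region centres by distance from the near edge of the first gene in kb; grey bands lie within 50 kb of a coding gene. Between Tnc and Pappa the touch dome and HF libraries have marks between 200 and 500 kb where the IFE libraries have none, and between Satb1 and Kcnh8 each HF library has 3 marks.

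In the IFE against HF comparison, the desert beside Plk2 led on the IFE side. Between Plk2, a polo-like kinase, and Actbl2, 25 and 32 of 41 regions were open in touch dome, 35 and 33 in IFE and 16 and 18 in HF. Open in IFE and not HF were 14 there, and 0 in the reverse. Rgmb-Gm51425, beside a BMP co-receptor, had 12 and 0 on the same count, Klf6-Pitrm1 had 13 and 4, Satb1-Kcnh8 had 11 and 1, and Gypc-Tslp, beside the gene of a keratinocyte cytokine, had 8 and 0. On the HF side, behind Mtx2-Gm50595, Fam98a-Crim1 had 2 regions open in IFE and not HF and 23 in the reverse, and Cdh11-Cdh5 had 1 and 20. For IFE over touch dome only 2 deserts reached a net of 3 regions. These were Tex29-A230072I06Rik, with 0 and 1 of 5 regions open in touch dome, 4 and 4 in IFE and 0 and 2 in HF, and Lrig1-Kbtbd8, beside a marker of stem cells at the follicle's upper end, with 3 regions open in IFE and not touch dome.

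**Figure D5:**
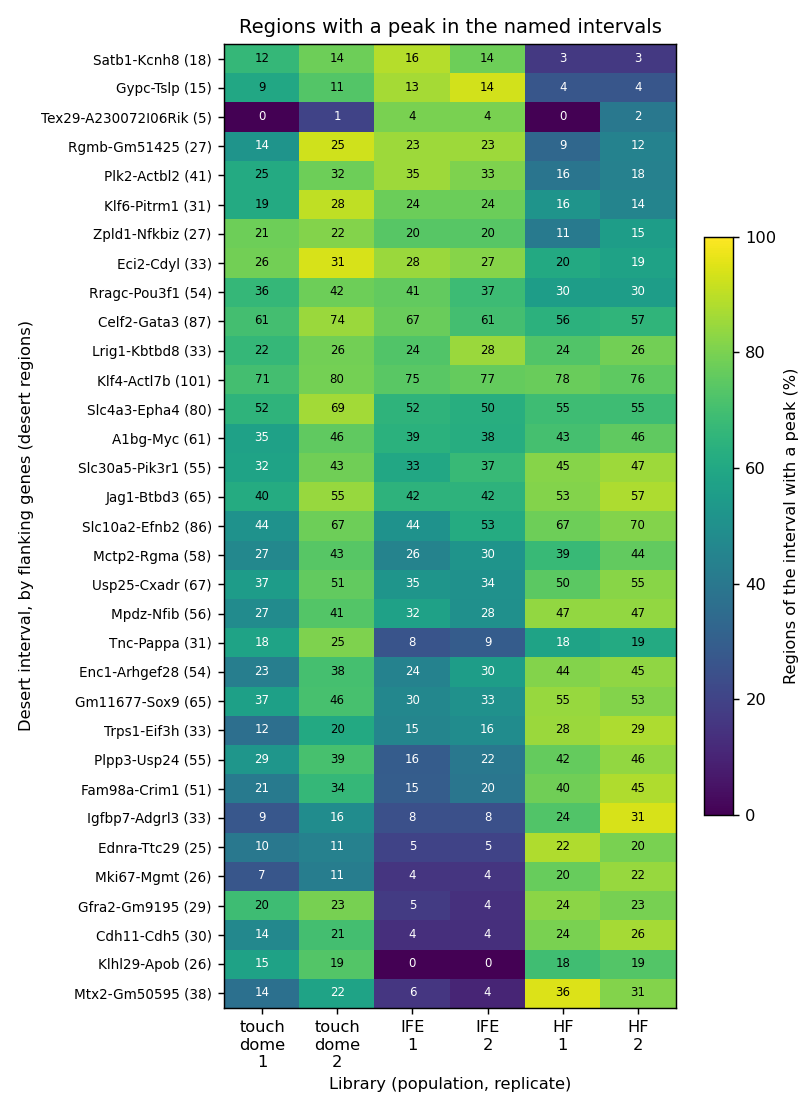
Desert regions with a peak per library in the 33 named deserts, with the number of desert regions in brackets. Colour gives the percentage of the desert's regions and the printed number the count; rows run from deserts opened more in IFE than HF at the top (Satb1-Kcnh8) to those opened more in HF at the bottom (Mtx2-Gm50595).

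Regions that differed between IFE and HF had a neighbour of the same kind more often than the share of that kind among all desert regions, though most neighbours were of another kind. Of the desert regions, 10023 (79.8%) had another within 20 kb, and the median gap to the nearest one was 5.84 kb. Of the 2330 regions with such a neighbour that were open in HF and not IFE, the nearest neighbour was of the same kind in 43.0%, where 24.2% of all desert regions are of that kind, and of the opposite kind in 5.06%, where 11.5% are. Of the 1166 that were open in IFE and not HF, the neighbour was of the same kind in 24.6%, where 11.5% are, and of the opposite kind in 10.2%, where 24.2% are. For touch dome and not IFE, the neighbour was of the same kind in 26.0%, where 10.1% are. For IFE and not touch dome it was of the same kind in 5 of 183 cases (2.73%), where 1.68% are. For touch dome and not HF it was of the same kind in 22.3%, where 10.3% are, and for HF and not touch dome in 22.6%, where 11.4% are. These shares were not tested. Of 313 deserts with at least 5 regions that differed between IFE and HF, 11 held regions of the IFE kind alone, 72 of the HF kind alone and 230 both. A desert with that many such regions would often hold both kinds in any case, so these counts are a description alone.

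When each desert region was given to its nearest coding gene, which need not be the gene it acts on, 2248 genes had at least 1. Hair follicle transcription factors had 550 regions at 36 of 57 listed genes, and of these 11.3% were open in IFE and not HF and 27.3% in HF and not IFE, against 11.5% and 24.2% of all desert regions. Sox9 had 56 regions, with 3 open in IFE and not HF and 21 in the reverse, and Gata3 had 87, with 19 and 12. Epidermal and barrier transcription factors had 403 regions at 27 of 51 genes, with 15.6% open in IFE and not HF and 12.9% in HF and not IFE. Klf4 had 42 regions, with 6 and 2, and Klf6 had 46, with 10 and 7. Myc and Maf went the other way, Myc with 71 regions, 3 and 13, and Maf with 30, 1 and 5. Of the epidermal factors' regions, 44.2% were open in all 6 libraries, against 30.8% of all desert regions.

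Among signalling pathways, the lists differed in their share on the HF side. Wnt pathway genes had 90 regions at 19 of 61 genes, with 6.67% open in IFE and not HF and 43.3% in HF and not IFE. The Wnt receptor gene Fzd1 had 16 regions, with 1 and 10, and Fzd8 had 18, with 0 and 10. Axin2 had 7, with 0 and 1, and Wnt7b had 7, with 0 and 0. Hedgehog genes had 76 regions at 8 of 16 genes, with 2.63% and 42.1%, and BMP and TGF-beta genes had 186 at 18 of 43, with 11.3% and 33.3%. The Hedgehog co-receptor gene Gas1 had 28 regions, 0 open in IFE and not HF and 9 in the reverse. Shh, the ligand, had 10, with 0 and 4. Notch genes had 85 regions at 5 of 21 genes, with 14.1% and 17.6%. The ligand gene Jag1 had 41 of these, with 2 and 11, and the ligand gene Dll1 had 15, with 7 and 0. These pathways ran from 17.6% to 43.3% on the HF side, where all desert regions stood at 24.2%. FGF and EGF genes (200 regions at 22 of 49 genes, 14.5% and 23.0%), axon guidance genes (270 at 24 of 54, 9.63% and 29.3%), cadherins and neuronal adhesion genes (271 at 43 of 71, 6.64% and 31.0%) and other developmental factors (430 at 55 of 102, 9.30% and 23.0%) lay between 23.0% and 31.0% on the HF side. AP-1 and stress genes had 33 regions at 5 of 22 genes, with 9.09% on either side. Integrin, laminin and matrix genes had 63 regions at 13 of 35, with 14.3% and 34.9%, and sebaceous gland genes had 25 at 3 of 17, with 0 and 7 regions. The clustered keratin and cornified envelope genes had only 3 regions at 2 of 26 genes. These shares describe the lists and were not tested.

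Regions nearest markers of cell types other than keratinocytes differed from list to list, where 11.5% of all desert regions were open in IFE and not HF and 24.2% in HF and not IFE. Melanocyte markers had 11 desert regions at 2 of 12 genes, Mitf (7) and Kit (4), none open in all 6 libraries, with 0 open in IFE and not HF and 9 (81.8%) in the reverse. All 7 at Mitf, the melanocyte master regulator, were open in both HF libraries, none in either IFE library, and 2 and 3 in touch dome. Endothelial and mural markers had 42 regions at 6 of 17 genes, with 3 (7.14%) open in IFE and not HF and 23 (54.8%) in the reverse. Of the 42, 29 lay nearest Cdh5, the gene of an endothelial cadherin, in the desert that Cdh11 borders, up to 654 kb from the Cdh5 span. Of the 23 open in HF and not IFE, 19 were among these 29. The 29 also count in the list of cadherins and neuronal adhesion genes. Merkel cell markers had 33 regions at 4 of 16 genes, with 11 (33.3%) open in IFE and not HF, 4 (12.1%) in the reverse and 1 in touch dome and not IFE. Sox2, a Merkel cell factor that is also expressed in other lineages, had 13 of these, of which 7 and 13 were open in touch dome, 9 and 7 in IFE and 5 and 5 in HF. Schwann cell markers had 10 regions at 2 of 12 genes, with 0 on either side of the IFE and HF comparison. Of the 10 regions, 8 were open in all 6 libraries. Egr2, which is also on the AP-1 and stress list, had 8 of the 10, with 6 open in all 6 libraries. Fibroblast markers had 20 at 5 of 14 genes, with 5 open in IFE and not HF and 3 in the reverse. Immune markers had 9, all at Ptprc (1 of 19 genes), with 1 and 2. The part of other cell types in these counts was not tested.

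LncRNA genes covered part of the deserts. Of the desert regions, 2901 (23.1%) overlapped the span of 1350 lncRNA genes, and 35.3% of these were open in all 6 libraries, against 29.5% of the 9661 outside. The lncRNA gene with the most was 2610307P16Rik beside Sox4, a SOX transcription factor gene, with 25 regions, of which 14 and 19 were open in touch dome, 12 and 13 in IFE and 20 and 24 in HF. Pvt1, beside Myc, had 18, open in 9 and 11 cases in touch dome, 13 and 12 in IFE and 12 and 15 in HF. Lncpint, a target of p53 in mouse, had 17, open in 14 and 15 cases in touch dome, 14 and 11 in IFE and 12 and 12 in HF. Mir100hg, host of Mir100 and Mir125b-1, had 11, open in 8 and 11 cases in touch dome, 10 and 9 in IFE and 4 and 4 in HF. Gm9548 had 12, open in 6 and 8 cases in touch dome, in none in IFE and in 11 and 12 in HF. The lncRNA genes thus ranged from level across populations (Lncpint) to closed in 1 of them (Gm9548).

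Regions far from non-coding genes too were open in fewer libraries. The 3103 desert regions more than 50 kb from every annotated gene of any kind were open in all 6 libraries in 25.1% of cases, against 30.8% of all desert regions. Distance from coding genes was not held equal in this contrast. The same share was 25.5% for all desert regions beyond 200 kb from a coding span. Of the 3103, 11.7% were open in IFE and not HF and 28.1% in HF and not IFE.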

How the data were processed

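The data were 6 peak lists, 1 per library. The submitters' processing notes name mm10 as the build and list MACS2 2.2.7.1, SAMtools 1.9, Bowtie2 2.4.5 and Trim Galore 0.6.7. How these were run is not given in the sources used here, read filters and the peak threshold included. Each deposited list holds chromosome, start, end and name in 4 columns, with no score, height or read number. A longer list can therefore hold weak peaks that another library missed, and no depth could be compared.

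Peaks overlapping by at least 1 bp were merged, and distances were taken to 20560 protein-coding spans of RefSeq's GRCm38.p6 table on the autosomes. Coordinates are counted from 1. Population shares were compared by exact permutation over libraries, and desert with gene-near regions by exact sign flips over the 6 libraries, with Benjamini-Hochberg adjustment. Counts of specific regions carry no test, since regions are not replicates. Scripts ran in Python 3.11.15 with pandas 2.3.3. Merging and distances were tested on simulated peaks, with 0 of 5118 library states and 0 of 853 distances wrong.

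Named deserts were the 12 with most regions, the 5 with most regions open in all 6 libraries, and up to 5 per direction of each comparison with a net of at least 3 specific regions. Named genes were up to 4 per list. The planned windows of region sequence gave way to promoters and miRNAs, as no genome sequence was used here. Of 14 motifs searched, 6 are marked in the sequences. The desert regions, the 20 gene lists and the tests were chosen with earlier results of these data known. The miRNAs, lncRNAs and promoters named, the comparison by distance and the motifs marked were chosen after their values were seen. Alternatives were other distance limits, any annotated gene, a 50% cover, merging within 100 bp, wider peaks, equal numbers of peaks, each library left out and the replicate block.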

Additional observations from a re-analysis of the deposited data

Results flagged for a closer look

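Chromosome X was outside the autosomal regions described above, and it also held signal far from genes. Of its 1674 regions, 335 lay more than 50 kb from a coding gene span, and 98 of these were open in all 6 libraries. For touch dome, 162 and 250 of them were open, for IFE 194 and 192, and for HF 220 and 224. The populations were not compared on this chromosome.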

How the results depend on the processing

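Between IFE and HF, the HF side held the larger number of desert regions under every alternative run, and the desert share of open regions in IFE minus HF stayed between -3.00 and -0.938 points. With the limit at 25 kb the desert share of open regions averaged 21.5% over libraries, in place of 15.0%, with 5822 regions open in all 6 libraries and 340 open in IFE and not touch dome. With the limit at 100 kb there were 7879 desert regions (9.18% of open regions), 2228 open in all 6, 113 open in IFE and not touch dome, 833 in touch dome and not HF, 948 in HF and not touch dome and 887 in IFE and not HF. More than 50 kb from any annotated gene were 3103 (3.48%), 780 open in all 6, with 366 open in touch dome and not IFE, 47 in the reverse, 341 in touch dome and not HF, 400 in the reverse, 364 in IFE and not HF and 872 in the reverse. With the wider 50% of peaks these were 5675 (12.4%), 1382, 462, 104, 549, 705, 625 and 1374. With an equal number of the widest peaks, 394 were open in IFE and not touch dome.

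With the wider 50% of peaks, 2 differences between desert and gene-near regions passed by the exact sign-flip test, a share restricted to 1 population higher by 2.82 points and a median peak width of -13.7 bp (adjusted p = 0.0469 each); the cause was not tested. The difference in the share also open in the replicate library, -0.501 points as reported, became 0.0263 with the limit at 25 kb, and it ranged from -1.07 to 0.103 with 1 library left out, positive without touch dome replicate 1 (0.0960) or 2 (0.103). The change with distance in touch dome minus HF, -2.27 points, became 2.69 more than 50 kb from any annotated gene; the cause was not tested in either case. For IFE minus HF it was -3.73 points there and -11.2 to -9.93 with 1 library left out, against -10.4.

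With 1 library left out, touch dome against IFE gave 1269 to 2580 regions on the touch dome side and 211 to 947 on the IFE side, and touch dome against HF gave 1289 to 2222 and 1438 to 2696. IFE against HF gave 1444 to 1868 and 3044 to 3893. With the replicate number as a block, the differences in desert share stayed at 1.63, -0.965 and -2.60 points, each with exact p = 0.5, the smallest that 2 pairs allow. Numbers 1 and 2 are shared by all populations, and nothing in the labels pairs the samples. Precision is limited by 2 libraries a population and an unknown depth.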
